A study of Mus musculus with 10 samples.

Results

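The response of Ptger4-/- B cells to 2 h of B cell receptor engagement was measured on 2 of the 10 arrays of the series. The RNA compared on both came from splenic B cells of female Ptger4-/- mice aged 2 months, kept for 2 h with an anti-IgM antibody cut to its F(ab')2 part (anti-IgM), or without it in IMDM medium. On array 1 the anti-IgM RNA carried the dye Cy3 and on array 2 it carried Cy5, so the arrays form a dye swap. A matching pair of arrays from Ptger4+/+ B cells, with the same treatments, time, sex and age, served for comparison. The other 6 arrays compared RNA at 24 h, with prostaglandin E2 (PGE2) on at least 1 side. In the fit of all 10 arrays they entered only the estimates of the spread and of the dye effect. B cells were taken from whole spleen with a magnetic isolation kit, and the labels give neither the number of mice behind a sample nor the kind of deletion. Such fragments lack the Fc part of the antibody, and no T cell stimulus was listed.

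The B cell receptor is a membrane immunoglobulin that signals through the Cd79a and Cd79b chains to the kinases Lyn and Syk, and from there to calcium, MAP kinases and NF-kB. Within hours such a signal switches on immediate-early transcription factors and growth genes and switches off genes of the resting, recirculating cell. Ptger4 encodes EP4, a PGE2 receptor that raises cyclic AMP, and PGE2 is known to restrain B cell activation. No PGE2 was added at 2 h.

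Each value below is a log2 ratio of anti-IgM over medium, so 1 stands for a 2-fold higher and -1 for a 2-fold lower signal with anti-IgM. The pair of values given for a gene is always array 1 and then array 2. Means carry the standard error (SE) of a limma fit over all 10 arrays, with n = 2 arrays, and a gene is called where its adjusted p in that fit was under 0.05. Neither the log base nor the direction of the deposited ratios was given in the sources used here. The values were read as log2 of Cy5 over Cy3. That direction is likely because immediate-early genes such as Egr1, Egr2 and Myc then rise with anti-IgM, which for this reason is not a finding. With natural logs all log2 values would be larger by the same factor. The sources do not say whether both arrays of a pair carried the same RNA extracts, so the p-values may cover technical spread alone. A ratio between 2 RNA pools cannot tell fewer cells of a type from less RNA per cell, and it gives no level of a gene.

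The 2 Ptger4-/- arrays had medians of -0.000233 and 0.00815 over 22533 features, which are 18300 genes with a symbol and the probes that have none. They correlated with r = 0.74 across all features, as a description across genes that share labelling and arrays. Across called features r was 0.937, but the call itself favours features whose arrays lie together and away from 0. The higher value is therefore no measure of how well the arrays repeat. Array 1 correlated more closely with the Ptger4+/+ array of the same dye orientation (r = 0.82) than with its own dye swap. A dye effect was called for 8547 features, and the fit carries a dye term for this reason. Ptger4 itself had log2 ratios of 0.59 and 0.53 in Ptger4-/- cells and of 1.08 and 0.74 in Ptger4+/+ cells. It was called higher with anti-IgM in Ptger4-/- cells (0.56 ± 0.07 SE, n = 2 arrays, limma adjusted p = 0.000708). The 1 probe for it thus gave a ratio away from 0 in RNA labelled Ptger4-/-. Without intensities the strength of its signal could not be judged. Where that probe lies relative to the deletion was not given, so it checks nothing about the genotype.

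Anti-IgM changed many features of Ptger4-/- cells within 2 h, about as many up as down. Limma called 2622 features higher (11.6% of those tested) and 2637 lower (11.7%). Counted without a test, 361 features were at least 2-fold higher on both arrays (1.6%) and 284 at least 2-fold lower on both (1.26%). Most calls were small changes, with 3308 of the 5259 called features under 1.5-fold in size. Of the 5259, 2853 (54.3%) kept their call whichever of the 10 arrays was left out, and 55 had arrays of opposite sign. A further check looked for features at least 2-fold from 0 on 1 array and within 0.3 of 0 on the other. There were 38 that stood out on array 1, 35 of them above 0, and 68 on array 2, 59 of them below 0, and 8 and 15 of these were called.

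Called genes with a symbol were ranked by the smaller of their 2 array values, and the genes of 2 chemokines came first. Single values of other features reached further, up to 8.64 on array 1 and down to -5.53 on array 2. Ccl3, which draws in T cells and monocytes, had log2 ratios of 4.03 and 3.83, and its neighbour in function Ccl4 had 4.08 and 3.60. The arrays of Ccl3 lay closer together than those of Ccl4. Their means were 3.93 ± 0.08 and 3.85 ± 0.13 (SE, n = 2 arrays, limma adjusted p = 5.60e-07 and 2.38e-06). Next came Egr2, an immediate-early zinc finger factor, at 3.29 and 3.19, and Nampt, the enzyme of NAD salvage, at 3.01 and 2.76. Irf4, the transcription factor that directs activated B cells to plasma cell or germinal centre fates, stood at 2.84 and 2.57. The transcriptional repressor genes Gfi1 (2.67 and 2.71) and Bhlhe40 (2.51 and 2.64) rose by a like amount. In all of these the 2 arrays lay close together, with Ccl4 the widest apart.

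The other large rises fell into a few kinds of gene. Among regulators were Myc, the growth-driving transcription factor, at 2.67 and 2.43, Egr1 at 2.45 and 2.38, Tnfaip3, the NF-kB inhibitor A20, at 2.46 and 2.37, and the deadenylase gene Cnot7 at 2.23 and 2.12. Mir17hg, host transcript of the miR-17-92 cluster, stood at 2.45 and 2.07. Surface genes were Tfrc, the transferrin receptor, at 2.53 and 2.39, Cd69, an early activation marker, at 2.38 and 2.10, Gpr183, the oxysterol receptor EBI2 that places B cells at the follicle border, at 2.10 and 2.03, and the inhibitory receptor Cd72 at 2.09 and 2.01. Metabolic and transport genes were the lysosomal peptide transporter Slc15a3 (2.60 and 2.52), the lipid droplet gene Hilpda (2.69 and 2.44), hexokinase 2, Hk2 (2.32 and 2.13), the amino acid oxidase Il4i1 (2.06 and 2.18) and the anion transporter Slco4a1 (2.13 and 2.04). The pseudouridine synthase gene Pus7 had 2.13 and 2.06, Dmxl1 had 2.15 and 2.13, Plek, a substrate of protein kinase C, had 2.87 and 2.44, and Marcksl1, another such substrate, had 2.26 and 2.14. All 25 stayed called whichever array was omitted, and the highest adjusted p among them in limma was 2.21e-05, for Tnfaip3.

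**Figure D1:**
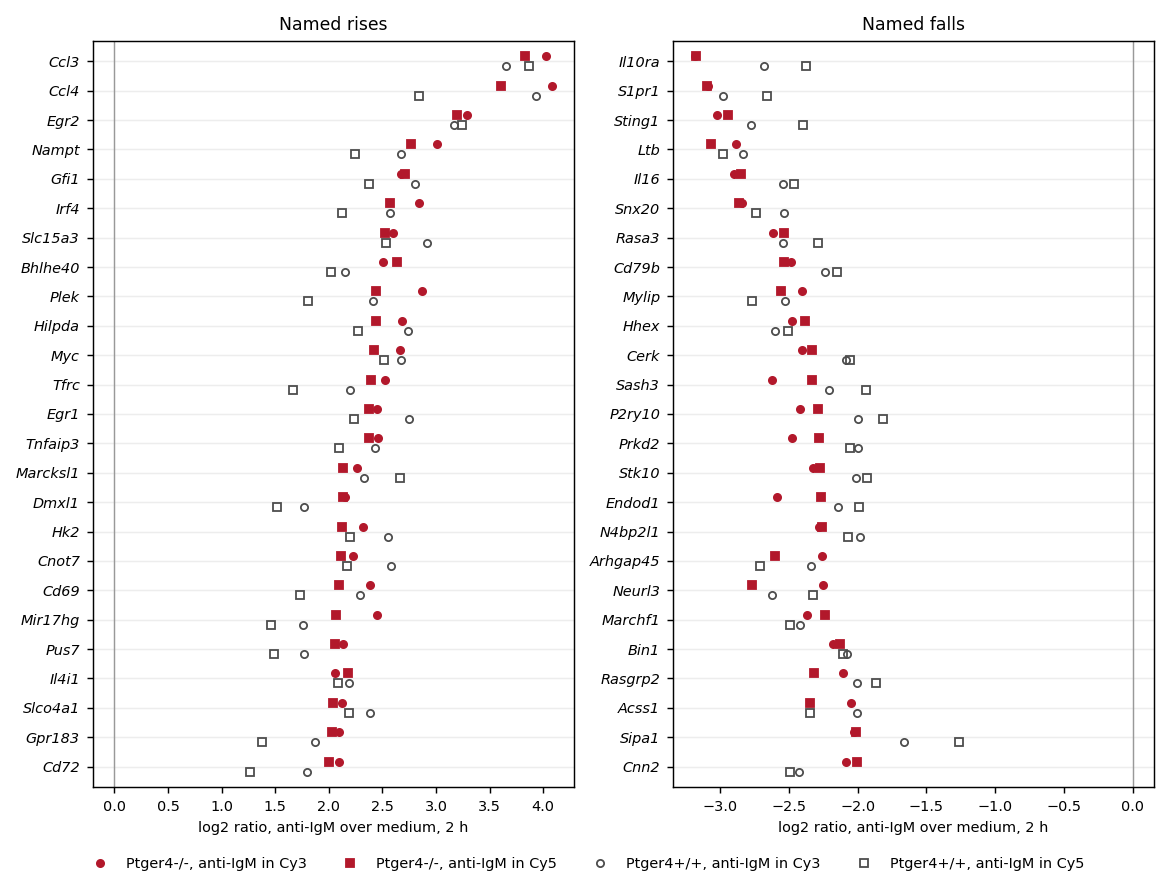
Log2 ratio of anti-IgM over medium at 2 h for the 25 most raised and the 25 most lowered genes of Ptger4-/- cells. Called genes were ranked by the smaller of their 2 array values. Filled red symbols are Ptger4-/- arrays and open grey symbols Ptger4+/+ arrays, with circles where anti-IgM was in Cy3 and squares where it was in Cy5. The Ptger4-/- values run from 4.08 for Ccl4 to -3.19 for Il10ra, and the Ptger4+/+ values lie on the same side of 0 for every gene shown.

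The falls matched the rises in size below the chemokines. Il10ra, the ligand-binding chain of the interleukin-10 receptor, was at -3.19 and -3.17. S1pr1, the sphingosine-1-phosphate receptor that lets lymphocytes leave lymphoid organs, was at -3.09 and -3.10. Sting1, the adaptor of cytosolic DNA sensing, was at -3.03 and -2.94. In each of these 3 genes the arrays lay close together and far below 0. Ltb, encoding lymphotoxin beta, had -2.88 and -3.07, the cytokine gene Il16 had -2.90 and -2.85, and the sorting nexin gene Snx20 had -2.84 and -2.87. The homeobox gene Hhex, needed in B cell development, had -2.48 and -2.39.

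Cd79b, the signalling chain of the receptor itself, was at -2.48 and -2.54. Regulators of the small GTPases Ras and Rap were Rasa3 (-2.61 and -2.53), Rasgrp2 (-2.11 and -2.32) and Sipa1 (-2.02 and -2.01). Kinase genes were Prkd2 (-2.48 and -2.28), the lymphocyte kinase Stk10 (-2.32 and -2.27) and Cerk, which phosphorylates ceramide (-2.40 and -2.33). The adaptor gene Sash3 had -2.62 and -2.33, the lysophospholipid receptor P2ry10 -2.42 and -2.29, and Arhgap45 -2.26 and -2.60. Marchf1, a ubiquitin ligase that removes MHC class II and CD86 from the surface, had -2.37 and -2.24, and Mylip, the ligase that degrades the LDL receptor, had -2.41 and -2.56. The list closed with Bin1, a membrane-bending protein (-2.18 and -2.13), the actin-binding Cnn2 (-2.08 and -2.01), mitochondrial acetyl-CoA synthetase Acss1 (-2.05 and -2.34), Neurl3 (-2.25 and -2.77), Endod1 (-2.59 and -2.26) and N4bp2l1 (-2.28 and -2.26). These 25 too stayed called whichever array was omitted, with 1.12e-05 (Neurl3) as the highest adjusted p in limma.

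Genes of the receptor complex and its first signalling steps were lower more often than higher. Of 29 measured, 13 fell and 6 rose, with a list median of -0.10 against 0.0042 over all features. For this list and each one below, the shares over all features were 11.6% higher and 11.7% lower. Beside Cd79b, its partner Cd79a stood at -1.72 and -1.54 and the kinase Syk at -1.13 and -1.25. Ms4a1, which encodes CD20, was at -0.73 and -0.76. These 4 were down on both arrays by well over the gap between arrays. Members that rose included the PI3 kinase adaptor Pik3ap1 (1.53 and 1.42), the exchange factor Vav1 (0.65 and 0.64) and the Src-family kinases Fyn (0.58 and 1.09) and Blk (0.90 and 0.43). The 2 probes of Pik3ap1 disagreed in size, with means of 0.85 and 2.10.

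Inhibitory receptors and other brakes on the receptor changed in both directions, with 13 of 32 lower and 7 higher (median -0.17). The inhibitory Fc receptor Fcgr2b had log2 ratios of -2.17 and -1.94 and the sialic acid receptor Cd22 had -1.91 and -1.85. Dgka, which removes diacylglycerol, was at -2.12 and -1.86. Against them stood Cd72, already named, Rgs2, which shortens G protein signals (1.26 and 1.499), the Ras GTPase-activating protein Rasa2 (1.16 and 0.91) and the inhibitory receptor Btla (0.82 and 0.63). Thus 3 inhibitory receptors of like design, Fcgr2b, Cd22 and Cd72, did not move together.

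Calcium and calcineurin genes numbered 5 higher and 7 lower of 25, against 11.6% and 11.7% over all features. Nfatc1, the NFAT factor that is induced by its own pathway, rose (1.41 and 1.26), as did the calcium pumps Atp2a2 (0.81 and 0.79) and Atp2b1 (0.84 and 0.69) and the channel Orai1 (0.49 and 0.51). The inositol trisphosphate receptor Itpr3 fell (-1.16 and -1.12), with the calcineurin subunit Ppp3ca (-0.73 and -0.87), Nfatc3 (-0.72 and -0.61) and the calmodulin gene Calm3 (-0.40 and -0.65). For Nfatc3 the 2 probes averaged -1.29 and -0.03, so the call rests on 1 of them.

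Among 33 MAP kinase genes, 11 rose and 7 fell. The dual-specificity phosphatases, which switch MAP kinases off, were split. Dusp2 (0.83 and 0.88) and Dusp4 (0.87 and 0.73) rose, while Dusp6, which acts on ERK, fell (-1.30 and -1.40). The kinases Map3k8 (0.74 and 0.64) and Map2k3 (0.66 and 0.62) rose. Mapk3, encoding ERK1, had -0.85 and -1.14, Mapk14, encoding p38 alpha, had -0.86 and -1.03, and the GTPase Rras had -0.85 and -0.91.

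Immediate-early factors rose in 19 of 33 cases and fell in 4 (median 0.33). Their overall direction fixed the sign of the ratios and is a description. What that choice did not fix is how unequal the members were, and those named here beyond the first 4 in each direction, as in the other lists, were picked after their values were seen. Beside Egr2, Bhlhe40, Myc and Egr1, the nuclear receptor gene Nr4a1 averaged 1.80 and Nr4a2 averaged 1.57, whereas Fos averaged 0.90 and Fosb 0.95. The AP-1 gene Jund fell (-1.24 and -1.25) and Jun did too, by less (-0.34 and -0.31). Klf6, at -0.45 and -0.44, and Ier5l, at -0.67 and -0.47, also fell. Klf6 had 1 probe at -0.96 and another at 0.07. Junb stood at -0.03 and -0.02 and Egr3 at 0.15 and 0.07, and neither passed the test.

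NF-kB genes rose in 14 of 30 cases, against 11.6% over all features, and fell in 7 (median 0.15). The rises were led by inhibitors and by a subunit. Tnfaip3 was named above. Nfkb1, the p105 and p50 subunit, had 2.27 and 1.98, the nuclear inhibitor family member Nfkbiz had 1.99 and 2.04, and the TRAF-binding Tank had 1.79 and 1.47. The inhibitor Nfkbia, I kappa B alpha, rose by less (0.85 and 0.59). Falls were Bcl3, a nuclear coactivator of p50 (-1.26 and -1.29), the adaptor Traf5 (-0.89 and -0.79), the deubiquitinase Cyld (-0.45 and -0.55) and the kinase Ikbke (-0.44 and -0.32). Leaving out array 1 reduced the falls from 7 genes to 4.

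The promoters of some of these genes are shown because they hold the letters that NF-kB is known to bind, in genes that moved in opposite directions. The motif GGGNNTTTCC was searched on both strands in the 250 bases before each gene start of the RefSeq promoter table (build GRCm38.p6), a search chosen after the values were known. It was present in 447 of 27025 genes (1.65%) and in 7 of the 26 NF-kB list genes that have a promoter in the table (26.9%). Of those 7, Tnfaip3, Tank, Rel, Nfkbia and Nfkb2 rose, while Cyld and Traf3 fell. The 150 bases before the start are printed for Tnfaip3 (chr10:19015411-19015560, minus strand) and Nfkbia (chr12:55492648-55492797, minus strand), which rose, and for Ltb (chr17:35194357-35194506, plus strand), which holds the motif and was among the largest falls. Egr2 (chr10:67537416-67537565, plus strand, 1 of 5 starts in the table) is added for its CArG box, the site of serum response factor. All are written 5' to 3' on the gene's strand, and capitals mark the match, which for the first 3 is the motif read on the opposite strand.
Tnfaip3: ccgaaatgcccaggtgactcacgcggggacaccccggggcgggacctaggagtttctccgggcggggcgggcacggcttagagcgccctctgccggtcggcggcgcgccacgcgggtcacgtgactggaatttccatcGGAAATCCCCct
Nfkbia: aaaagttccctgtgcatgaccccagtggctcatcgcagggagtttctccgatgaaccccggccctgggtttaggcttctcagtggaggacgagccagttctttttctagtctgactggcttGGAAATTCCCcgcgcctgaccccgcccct
Ltb: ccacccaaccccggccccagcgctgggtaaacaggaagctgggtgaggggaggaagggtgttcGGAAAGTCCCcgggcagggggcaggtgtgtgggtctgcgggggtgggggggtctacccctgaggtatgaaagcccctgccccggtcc
Egr2: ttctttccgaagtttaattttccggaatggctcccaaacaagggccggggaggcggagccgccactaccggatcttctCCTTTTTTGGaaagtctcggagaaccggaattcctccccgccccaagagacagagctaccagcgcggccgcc
The match ends 3 bases before the start in Tnfaip3, 20 in Nfkbia, 78 in Ltb and 63 in Egr2. A CArG box was present in 1.62% of genes and in 2 of 25 immediate-early list genes with a promoter (8%), Egr2 and Srf, of which Srf did not pass the test (mean 0.0027). These matches describe the letters of the promoters, and binding was not measured.

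Secreted factors changed in both directions. Of 34 chemokine and cytokine genes, 8 rose and 4 fell, and the other 22 did not pass. Over all features 11.6% were called higher and 11.7% lower. Beside Ccl3 and Ccl4, Tnf had log2 ratios of 1.44 and 1.41 and Ebi3, a subunit of interleukins 27 and 35, had 0.67 and 0.66. Falls beside Ltb and Il16 were Ccl9 (-1.05 and -1.19) and Ifng (-0.33 and -0.20). The interleukin genes Il6 (0.17 and -0.11) and Il10 (-0.07 and 0.24) stayed near 0. Without the dye term 5 of the 8 rises stayed called.

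Receptors for cytokines showed 7 rises and 4 falls among 28. Il21r, for the T cell cytokine interleukin 21, rose (1.54 and 1.18), with the shared chain Il6st (0.63 and 0.69), Il17ra (0.59 and 0.71) and the interleukin-2 receptor chain Il2ra (0.54 and 0.68). The 4 probes of Il2ra ranged from -0.02 to 2.04. The interferon receptors Ifngr1 (-0.90 and -0.94) and Ifnar1 (-0.89 and -0.67) fell with Il10ra, and Crlf2 fell by 0.20 on both arrays. In the TNF receptor family 3 of 20 rose and 2 fell, near the shares over all features (11.6% and 11.7%). The rises were Tnfrsf13c, the receptor for the survival factor BAFF (0.75 and 0.99), Tnfrsf21 (0.46 and 0.61) and Cd27 (0.47 and 0.18). Tnfrsf26 (-0.97 and -0.88) fell, and Relt was called lower with arrays of opposite sign (-0.47 and 0.06), while Cd40, at 0.25 and 0.01, did not pass.

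Homing and adhesion genes split into 8 rises and 8 falls of 34. The falls were led by S1pr1 and P2ry10, named above, the factor Klf2, which drives S1pr1 (-1.33 and -1.34), and Cd55 (-1.17 and -1.08, with 1 of its 2 probes at 0.00). The rises included Gpr183, above, the adhesion gene Icam1 (1.71 and 1.67), S1pr3 (0.53 and 0.49) and the CXCL12 receptor Cxcr4 (0.74 and 0.46). Ccr7, which leads B cells to the T cell zone, averaged 0.51 and was called.

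Activation markers at the surface rose in 13 of 31 cases and fell in 9. Slc3a2, the CD98 heavy chain, had 2.10 and 1.81, and the costimulatory genes Cd83 and Cd86 averaged 1.09 and 1.00. Cd274, which encodes PD-L1, averaged 1.37. On the other side Icosl, the ligand of ICOS, had -1.86 and -1.85, Ly6a -1.08 and -1.44, Cd48 -0.82 and -0.63 and Ly6d -0.47 and -0.68. The smaller falls depended on array 2, without which 4 of the 9 stayed called.

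Of 21 genes of antigen presentation by MHC class II, 10 fell and 4 rose (median -0.34), and the other 7 did not pass the test. Beside Marchf1, the processing proteases Lgmn (-1.74 and -1.37) and Ctss (-0.89 and -0.98) and the chain H2-Oa, an inhibitor of peptide loading (-0.65 and -0.99), fell. The rises were the invariant chain Cd74 (1.54 and 1.08), the class II alpha chain H2-Aa (1.05 and 0.78) and the cathepsins Ctsl (0.31 and 0.43) and Ctsz (0.34 and 0.38). For MHC class I, 7 of 18 fell and 4 rose. All 3 immunoproteasome genes fell, with Psmb8 at -1.55 and -1.64, Psmb9 at -1.07 and -1.11 and Psmb10 at -0.75 and -0.89, and the peptide transporter Tap2 was at -0.85 and -1.11. Psme2, a proteasome activator (0.98 and 0.73), the peptide trimming enzyme Erap1 (0.75 and 0.72), H2-K1 (0.42 and 0.28, of near-identical class I genes) and Pdia3 (0.41 and 0.20) rose.

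Interferon response genes were lower in 16 of 37 cases, against 11.7% over all features, and 1 was higher. Samhd1, which depletes nucleotides, had -1.64 and -1.70, Stat2, the factor of type I interferon signalling, had -1.62 and -1.39, and Trim25 had -1.54 and -1.46. Ifi203 had -1.17 and -1.05, with 3 probes between -1.66 and -0.08. Isg15 was the 1 rise (0.35 and 0.28). Genes that mark a strong interferon response, Mx1, Rsad2 and Ifit3, did not pass the test. The count of falls depended on each array, with 9 called without array 2, 11 without array 1 and 10 without the dye term.

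Sensors and their signalling genes gave 6 rises and 9 falls of 32, against 11.6% and 11.7% over all features. The endosomal receptor Tlr7 rose (0.87 and 1.09), as did Tlr2 (0.41 and 0.42), Irak2 (0.38 and 0.25) and the DNA sensor Cgas (0.22 and 0.64). Cgas and Sting1, which act in turn in DNA sensing, moved in opposite directions. Ly96 (-1.77 on both arrays), Ly86 (-0.61 and -0.82) and Unc93b1, the chaperone of endosomal Toll-like receptors (-1.39 and -1.42), fell. In the JAK-STAT list 12 of 28 fell and 8 rose. The kinases Pim3 (1.45 and 1.01) and Pim1 (0.79 and 0.90), the phosphatase Ptpn2 (0.50 and 0.68) and Stat5a (0.45 and 0.49) rose. Pias3 (-0.77 and -0.66), Pias1 (-0.63 and -0.54) and the feedback inhibitor Cish (-0.68 and -0.50) fell with Stat2. Pias3 had 1 probe at -1.37 and another at -0.06, and 5 of the 8 rises stayed called without the dye term or without array 2.

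Transcription factors of B cell identity and fate changed in 21 of 43 cases, 9 up and 12 down. Irf4 was accompanied by Irf8 (1.41 and 1.16), the AP-1 factor Batf (1.11 and 0.91) and the Ets factor Spib (0.93 and 0.72). Falls beside Hhex were Bcl6, the master repressor of germinal centre B cells (-1.71 and -1.35), Irf2 (-2.19 and -1.72) and Elf1 (-1.32 and -1.15). The identity factors Pax5 (-0.04 and -0.14) and Ebf1 (-0.20 and -0.09) and the plasma cell factor Prdm1 (-0.10 and -0.16) did not pass. Quiescence factors fell in 13 of 33 cases and rose in 2. Klf2 was joined by Klf13 (-1.14 and -0.96), Klf7 (-0.93 and -1.005) and the stress-response gene Sesn1 (-0.85 and -0.88), while Klf9 (0.30 and 0.54) and Mnt (0.17 and 0.41) rose. Foxo1, central to the resting state, averaged -0.77.

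Regulators of mRNA decay were divided, with 7 rises and 6 falls of 30. Cnot7 was followed by Zc3h12a, the endonuclease Regnase-1 (1.29 and 1.17), the ARE-binding Zfp36 (0.99 and 0.46) and Ago2 (0.70 and 0.62, 4 probes between 0.08 and 1.04). Zfp36l2, a close relative of Zfp36, went down (-1.89 and -1.87), as did Zc3h12d, a relative of Zc3h12a (-0.78 and -0.68). Edc3 (-0.52 and -0.41) and Tnrc6a (-0.46 and -0.43) also fell. In 2 pairs of related genes, then, 1 member rose and the other fell.

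**Figure D2:**
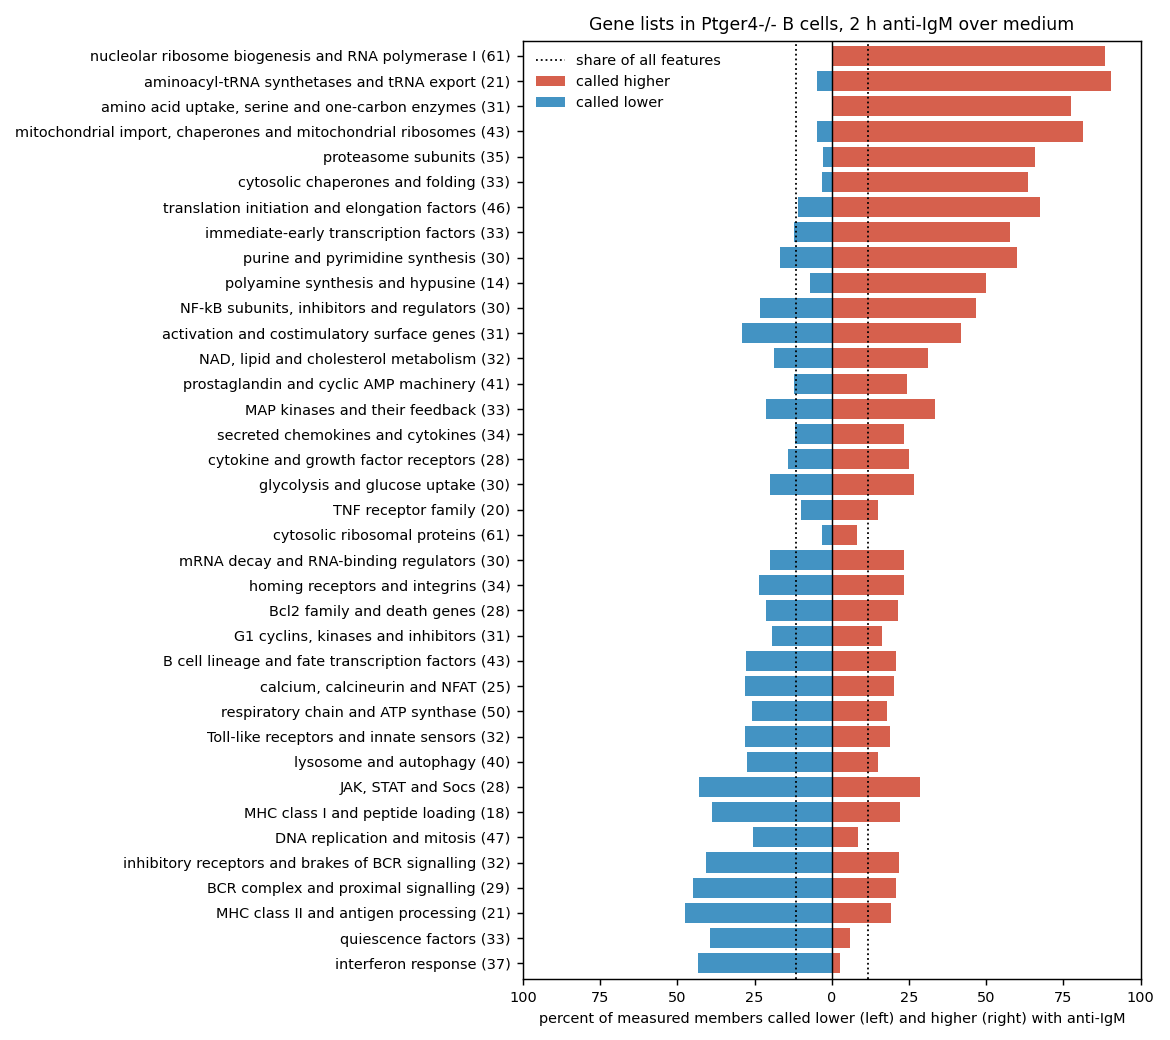
Percent of the measured members of each gene list described called lower (left of 0) and higher (right of 0) with anti-IgM in Ptger4-/- cells at 2 h, with dotted lines at the shares over all features (11.7% lower, 11.6% higher). The tRNA synthetase and nucleolar lists reach furthest to the right, at 19 of 21 and 54 of 61 genes, and the class II list furthest to the left, at 10 of 21.

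Genes that build ribosomes rose almost without exception. Of 61 nucleolar genes, limma called 54 higher and 0 lower, with a median of 1.02 against 0.0042 over all features. At an unadjusted p under 0.05, 1 was lower. Of the 61, 57 were above 0 on both arrays, against 30.4% of all features. Utp4, of the small subunit processome, had 2.19 and 1.95, Nop16 had 1.98 and 1.82, the GTP-binding Gnl3 had 1.79 and 1.80 and Ppan had 1.66 and 1.62. Nucleolin, Ncl, averaged 1.38 and the RNA polymerase I subunit Polr1b 1.41. The 7 genes not called included Polr1a, the largest polymerase I subunit (0.12 and 0.07), and Ubtf, its activator (-0.07 and 0.06). The E-box CACGTG, which Myc is known to bind, lay within 250 bases of the start in 3 of 52 nucleolar genes with a promoter (5.77%), against 6.86% of all genes. These 3 were Nop2, Utp18 and Rrn3, and all 3 rose.

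The proteins of the finished ribosome did not share this. Of 61 cytosolic ribosomal protein genes, 5 rose and 2 fell, both below the shares over all features (11.6% and 11.7%). The list median was 0.07, and the rises numbered 8 without array 2 and 3 without the dye term. Rpl5 (0.96 and 0.67), Rpl22 (0.60 and 0.52), Rps3 (0.64 and 0.34) and Rpl10 (0.34 and 0.51) were among the rises, and Rps15 (-0.70 and -0.68) and Rpl38 (-0.38 and -0.14) were the falls. The arrays disagreed for this list. Its median was 0.25 on array 1 and -0.10 on array 2, and 30 of the 61 genes were above 0 on array 1 and below 0 on array 2, against 19.6% of all features. The nucleolar medians were 1.09 and 0.93. In 15 of the ribosomal protein genes a probe shared its value to 6 decimals with another probe, and ribosomal proteins have many processed pseudogenes; the part of either in these values was not tested. None of the 50 genes with the largest rises and falls had such a probe.

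**Figure D3:**
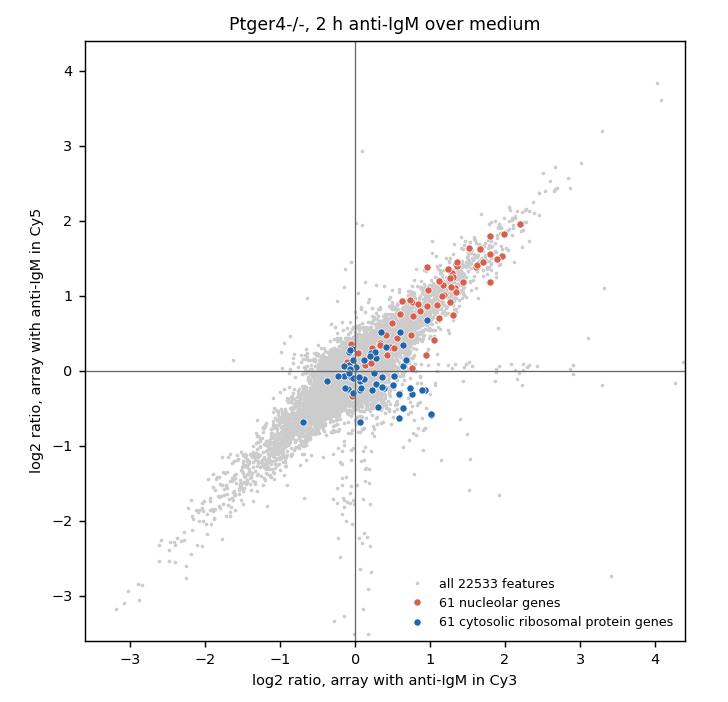
Log2 ratio of anti-IgM over medium in Ptger4-/- cells on array 1 (x axis, anti-IgM in Cy3) and array 2 (y axis, anti-IgM in Cy5) for all features (grey), 61 nucleolar genes and 61 cytosolic ribosomal protein genes. The nucleolar genes lie along the diagonal, with medians of 1.09 and 0.93, and the ribosomal protein genes spread to the right of 0 and below it, with medians of 0.25 and -0.10; 11 features lie outside the axes.

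Translation factors and tRNA synthetases rose with the nucleolus. Of 46 translation factors, 31 rose and 5 fell (median 0.51). Eif1a had 2.00 and 1.81, the eIF2 subunit Eif2s2 had 1.59 and 1.78, Eif2s1 had 1.53 and 1.72, and the eIF3 subunit Eif3b had 1.77 and 1.56. Eif4e, the cap-binding protein, averaged 1.52. Of the falls Eif4b was the largest (-1.05 and -0.92), and the others, Eif2b4, Eif3f, Eif3k and Eif3h, averaged between -0.27 and -0.24; without array 1 the falls numbered 1. Among 21 synthetases and partners, 19 rose and 1 fell (median 1.05). Gars (2.32 and 1.73), Tars (2.05 and 1.90), Nars (1.87 and 1.70) and Yars (1.41 and 1.15) led, Qars fell (-0.52 and -0.62), and Vars did not pass (0.18 and 0.43).

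Genes that supply amino acids and one-carbon units rose in 24 of 31 cases (median 0.76), and limma called 0 lower, or 1 at an unadjusted p under 0.05. Slc7a5, the partner of Slc3a2 in the large neutral amino acid transporter, had 2.10 and 1.94. Mat2a, which makes S-adenosylmethionine, had 2.03 and 1.87, and the mitochondrial folate enzyme Mthfd2 had 1.91 and 1.90. The stress factors Atf4 and Ddit3 averaged 0.85 and 0.93. Of 30 nucleotide synthesis genes 18 rose and 5 fell. CTP synthase, Ctps, had 2.05 and 2.00, its relative Ctps2 fell (-0.98 and -1.06), and Ppat, the committed step of purine synthesis, had 1.83 and 1.56. Impdh1, of guanine nucleotide synthesis, had 1.14 and 1.11 and the uridine kinase Uck2 1.24 and 0.97. Prps2 (-0.56 and -0.30) fell, and so did the deoxynucleotide genes Dut (-0.13 and -0.38) and Rrm2 (-0.23 and -0.12) by less; without either Ptger4-/- array 2 falls stayed called.

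Polyamine synthesis rose in 7 of 14 genes and fell in 1. Ornithine decarboxylase, Odc1, had 1.79 and 1.67, spermidine synthase, Srm, 2.22 and 1.65, Mtap 1.21 and 0.85 and Amd1 0.75 and 1.00, while the decarboxylase antizyme gene Oaz2 fell (-0.33 and -0.38). Of 30 genes in the list of glycolysis and glucose uptake 8 rose and 6 fell. That list also holds Hilpda, named above as a lipid droplet gene. Hilpda and Hk2 were followed by Ldha (1.42 and 1.15) and Pgam1 (1.10 and 1.06). Slc2a6, a sugar transporter (-1.08 and -1.07), Gpi1 (-0.47 and -0.75), Eno1 (-0.39 and -0.42) and Pfkfb4 (-0.43 and -0.25) fell, and the glucose transporter Slc2a1 did not pass (0.15 and -0.14). Falls numbered 4 without array 1 and 3 without array 2.

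Of 32 genes of NAD, lipid and cholesterol metabolism, 10 rose and 6 fell. Nampt, given above, is an NAD gene of this list. The sterol enzymes Sqle (1.58 and 1.21), Idi1 (1.41 and 1.33) and Msmo1 (0.76 and 0.57) rose by less. The cholesterol exporters Abcg1 (-1.14 and -1.39) and Abca1 (-0.58 and -0.69) fell with Mylip, and Pmvk, an enzyme of the same mevalonate pathway as Idi1, fell as well (-0.33 and -0.58). Leaving out either Ptger4-/- array left 6 of the 10 rises.

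Mitochondrial import, chaperone and ribosome genes rose in 35 of 43 cases and fell in 2 (median 0.65). The pyrimidine nucleotide carrier Slc25a33 had 2.25 and 1.98, C1qbp 1.82 and 1.66 and the folate carrier Slc25a32 1.56 and 1.61. Mrto4, a nucleolar gene that was placed in this list too and counts among the 35, had 1.52 and 1.63. The matrix chaperones Hspd1 and Hspa9 averaged 1.57 and 1.48. The adenine nucleotide carrier Slc25a4 fell (-0.92 and -0.85), and so did Mrpl3 (-0.52 and -0.47). The respiratory chain, by contrast, had 9 rises and 13 falls of 50. ATP synthase subunits moved both ways, with Atp5pb (1.28 and 1.01) and Atp5b (1.07 and 0.78) up and Atp5c1 (-0.91 and -0.77) and Atp5d (-0.46 and -0.68) down. Cycs (0.85 and 0.78) and Cox5a (0.71 and 0.76) rose, and Ndufb8 (-0.38 and -0.53) and Uqcrb (-0.36 and -0.50) fell. The falls numbered 6 without array 1 and 7 without array 2.

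Protein folding and turnover were higher too. Of 33 cytosolic chaperone genes 21 rose and 1 fell (median 0.56). Dnaja2 had 1.71 and 1.60, the peptidyl-prolyl isomerase Ppid 1.28 and 1.29, the chaperonin subunit Cct7 1.35 and 1.28, and Cct5 1.44 and 1.04. Bag3 was the fall (-0.25 and -0.15). Of 35 proteasome genes 23 rose and 1 fell (median 0.41). The activator Psme3 had 1.65 and 1.38, the core subunit Psma6 had 1.45 and 1.28, Psma5 had 0.82 and 0.77, and the assembly factor Psmg2 had 1.19 and 0.87. Psmb1 was the fall (-0.37 and -0.29). The immunoproteasome genes Psmb8, Psmb9 and Psmb10, counted with MHC class I, fell.

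Lysosome and autophagy genes leaned lower, with 11 falls and 6 rises of 40, against 11.7% and 11.6% over all features. Ctse (-0.98 and -0.78), the sialidase Neu1 (-1.02 and -0.72), Atg7 (-0.83 and -0.72, with probes at -1.62 and 0.07) and Ulk2 (-0.53 on both arrays) fell. Atg3 (0.56 and 0.79), Gabarapl1 (0.31 and 0.33), Ctsd (0.35 and 0.29) and Sqstm1 (0.34 and 0.18) rose, and 1 of the 6 rises stayed called without either Ptger4-/- array.

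Survival and death genes were balanced, with 6 rises and 6 falls of 28. The caspase Casp4 (1.96 and 1.63), the survival gene Bcl2a1b (1.21 and 1.24, of near-identical copies), Bid (0.73 and 0.57) and the caspase-8 inhibitor Cflar rose. Cflar had 1.91 and 0.57, far apart, and its 4 probes ranged from 0.14 to 2.69. Casp8 (-1.07 and -1.25), Casp2 (-0.91 and -0.95), the death promoter Bad (-1.04 and -0.81) and Bak1 (-0.58 and -0.39) fell. Bcl2l1 (-0.11 and -0.08) and the death promoter Bcl2l11 (0.01 and 0.21) did not pass.

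Of 31 genes of the G1 phase of the cell cycle, 5 rose and 6 fell, against 11.6% and 11.7% over all features. There were 3 rises left without array 1 and 2 without array 2. Cdk4 had 2.23 and 1.88 and its partner cyclin D2, Ccnd2, 1.62 and 1.33, while Ccng1 (0.50 and 0.39) and E2f5 (0.25 and 0.42) rose by less. Cdc25b (-1.61 and -1.60), the quiescence cyclin Ccng2 (-1.29 and -1.20), Rb1 (-0.91 and -1.08) and E2f2 (-0.50 and -0.39) fell. Cyclin D3, Ccnd3, and cyclin E1, Ccne1, did not pass. Of 47 replication and mitosis genes, 12 fell and 4 rose, so that rises were rarer than over all features. The DNA polymerase subunit Pold1 (-1.16 and -1.28), Rfc1 (-1.23 and -0.77), Rpa1 (-1.11 and -0.88) and Rfc2 (-0.60 and -0.76) fell, and Orc2 (0.55 and 0.73), Ccnb2 (0.40 and 0.71), Ttk (0.69 and 0.65) and Fen1 (0.23 and 0.12) rose. Mki67 (0.03 and 0.13), Top2a (-0.05 and 0.19) and Mcm2 (-0.14 and 0.10) stayed near 0, and 7 of the 12 falls stayed called without array 2.

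The prostaglandin and cyclic AMP machinery, to which Ptger4 belongs, had 10 rises and 5 falls of 41, the falls near the share over all features (11.7%). Beside Ptger4, the G protein subunit Gna13 (1.30 and 1.28), Ptges3 (0.68 on both arrays) and Ptgs2, the inducible cyclooxygenase (0.51 and 0.59), rose. The other cyclic AMP-raising PGE2 receptor, Ptger2, averaged 0.21 and was called. The phosphodiesterase Pde4b, which degrades cyclic AMP, fell (-0.69 and -0.999), with the anchoring protein Akap13 (-0.50 and -0.63), the inhibitory G protein subunit Gnai2 (-0.44 and -0.54) and the kinase subunit Prkacb (-0.36 and -0.44). Rises numbered 5 without array 1 and 6 without array 2.

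Some markers of other spleen cells were called, where 11.6% of all features were called higher and 11.7% lower. Of 16 T cell markers 2 rose and 2 fell, of 13 NK cell markers 2 rose, of 16 monocyte and macrophage markers 1 rose, of 12 neutrophil markers 1 rose and 1 fell, of 12 dendritic cell markers 2 rose and 1 fell, and of 10 red cell and platelet markers 1 rose and 1 fell. Their list medians lay between -0.01 and 0.10. The larger values were of genes that B cells also use, Tbx21 (1.34 and 1.07) and Irf8, and of dendritic cells Zbtb46 was at 0.67 and 0.54. T cell markers went both ways, with Il7r (0.42 and 0.52) and Cd3g (0.26 and 0.49) higher and Cd2 (-0.61 and -0.66) and Cd8b1 (-0.28 and -0.22) lower. The NK cell marker Klrg1 had 0.47 and 0.24 and the globin gene Hba-a1 had -0.39 and -0.37. For Cd2 and Hba-a1, and no other gene of the T cell list, the difference between the Ptger4-/- and Ptger4+/+ responses was called. Cell preparation and genotype cannot be told apart in it. Cd2 had -1.38 and -1.59 in Ptger4+/+ cells (difference 0.85 ± 0.09 SE, n = 2 arrays each, limma adjusted p = 0.0185), and Hba-a1 had 0.29 and 0.10 in Ptger4+/+ cells (difference -0.57 ± 0.07, limma adjusted p = 0.0237). Of 19 B cell markers 7 fell and 5 rose. Those not given above were Cd37 (-0.41 and -0.42), Bank1 (-0.55 and -0.27) and Ighm (-0.21 and -0.30), which fell. Their part in the response was not tested.

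Smaller changes among the list members named lost their call when an array was left out. The calls of Crlf2, Ly6d, Mnt, Dut, Rrm2, Uqcrb, Bag3, Atg3, Gabarapl1, Sqstm1, Ccng1, Fen1 and Rfc2 were lost without either Ptger4-/- array. Those of Ikbke, Cd27, Ctsz, Pdia3, Rpl38, Eif2b4, Eif3f, Eif3k and Ttk were lost without array 1 alone, and those of Jun, Ifng, Il17ra, Oaz2, Pfkfb4, Pmvk, E2f5 and Isg15 without array 2 alone. Bag3 also lost its call without either array of the Ptger4-/- pair at 24 h. Fen1 lost it without any array other than those of the Ptger4+/+ pair with PGE2 at 24 h. Some members named beyond the first 4 were fragile as well. With each of the 10 arrays left out in turn, Bank1 kept its call in 4 cases. Relt, Ighm, Nfkb2 and Rrn3 kept theirs in 8, and Traf3 in 9.

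The response of Ptger4-/- cells was set against that of Ptger4+/+ cells to ask whether the genotype changes it. The same direction was called in both genotypes for 3662 features, 1748 higher and 1914 lower, and opposite directions for 40. Among features called alike, the median size was 0.58 in Ptger4-/- and 0.51 in Ptger4+/+ cells, and 62.6% were larger in Ptger4-/- cells. The difference between the responses was called for 391 features, with Ptger4-/- above Ptger4+/+ in 254 (1.13%) and below it in 137 (0.608%). Of the 391, 383 had arrays of the genotypes that did not overlap, as did 29.3% of all features, and the call itself favours such features. The calls were fragile, since 12 of the 391 stayed called when any of the 4 arrays at 2 h was left out. Each genotype is represented by 1 dye-swap pair, and a difference between the cell preparations and a difference between genotypes cannot be told apart.

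**Figure D4:**
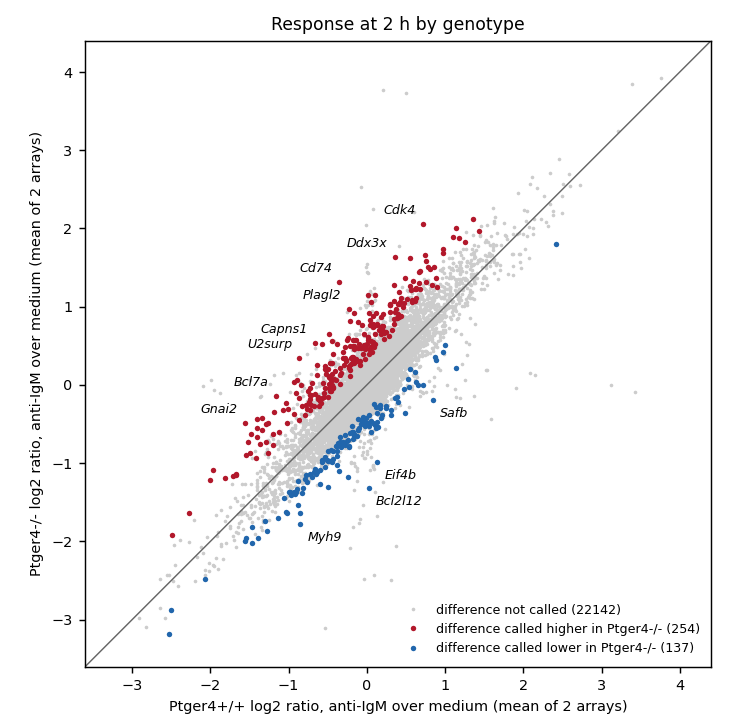
Mean log2 ratio of anti-IgM over medium at 2 h in Ptger4-/- cells (y axis) against that in Ptger4+/+ cells (x axis), for all features. Coloured points are the 254 features with the response called higher and the 137 with it called lower in Ptger4-/- cells, and 12 named genes kept that call when any array at 2 h was left out; 1 feature lies outside the axes.

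Cd74, the invariant chain of MHC class II, differed most clearly. Its log2 ratios were 1.54 and 1.08 in Ptger4-/- cells and -0.15 and -0.56 in Ptger4+/+ cells, so it rose in Ptger4-/- and fell in Ptger4+/+ cells with no overlap. The difference was 1.66 ± 0.06 (SE, n = 2 arrays each, limma adjusted p = 0.000217). Cdk4 had 2.23 and 1.88 in Ptger4-/- cells against 1.04 and 0.41 in Ptger4+/+ cells, a difference of 1.33 ± 0.08 (limma adjusted p = 0.00512). Both genotypes raised Cdk4, and the lowest Ptger4-/- array exceeded the highest Ptger4+/+ array. Ddx3x, an RNA helicase gene, had 1.73 and 1.55 against 0.43 and 0.29 in Ptger4+/+ cells (difference 1.28 ± 0.09, limma adjusted p = 0.00627).

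Other genes with a higher ratio in Ptger4-/- cells included some that fell in Ptger4+/+ cells and changed little or not at all in Ptger4-/- cells. Bcl7a, a chromatin remodelling subunit, had -0.15 and -0.13 in Ptger4-/- cells, which did not pass, against -1.19 and -1.13 in Ptger4+/+ cells. Gnai2 fell by less in Ptger4-/- cells (-0.44 and -0.54) than in Ptger4+/+ cells (-1.45 and -1.66), with a difference of 1.07 ± 0.07 (limma adjusted p = 0.00512). H2-DMa, which edits class II peptides, had -0.42 and -0.47 against -1.35 and -1.47, and Lpgat1, a lipid acyltransferase, had -0.37 and -0.49 against -1.33 and -1.35 in Ptger4+/+ cells. U2surp, a splicing factor gene, had 0.29 and 0.40 in Ptger4-/- cells and -0.98 and -0.76 in Ptger4+/+ cells. The zinc finger gene Plagl2 had 0.96 and 0.98 against -0.14 and -0.32, the calpain subunit Capns1 0.73 and 0.34 against -0.49 and -0.83, and Il17ra 0.59 and 0.71 against -0.34 and -0.62 in Ptger4+/+ cells. Dld, a subunit of pyruvate dehydrogenase, had 1.07 and 1.04 against 0.17 and -0.06.

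Lower ratios in Ptger4-/- cells were led by Bcl2l12, an apoptosis regulator, with -1.21 and -1.43 in Ptger4-/- cells against 0.20 and -0.16 in Ptger4+/+ cells (difference -1.34 ± 0.09, limma adjusted p = 0.00601). The translation factor Eif4b had -1.05 and -0.92 against 0.10 and 0.17 (difference -1.12 ± 0.08, limma adjusted p = 0.00627), and its Ptger4+/+ response did not pass the test. Myh9, the non-muscle myosin heavy chain, fell in both genotypes, by more in Ptger4-/- cells (-1.66 and -1.88) than in Ptger4+/+ cells (-0.65 and -1.05). Safb, a nuclear matrix protein, had -0.29 and -0.10 against 0.85 and 0.83 in Ptger4+/+ cells, and the mitochondrial tryptophan tRNA synthetase Wars2 had 0.28 and 0.15 against 1.21 and 1.07. Neither Safb nor Wars2 passed the test of the Ptger4-/- response. Rab21 (-0.31 and -0.41 against 0.55 and 0.42) and Vezt (-0.46 and -0.31 against 0.28 and 0.33 in Ptger4+/+ cells) had opposite signs in the genotypes. The remaining ones were Hddc3 (-1.21 and -1.15 against -0.39 and -0.08), the transcription factor Usf1 (-1.30 and -1.24 against -0.56 and -0.63), the complex I subunit Ndufv3 (-1.03 and -1.004 against -0.34 and -0.43), Glipr2 (-0.62 and -0.47 against 0.09 and 0.15) and Rabep2 (-1.60 and -1.65 against -1.04 and -1.03 in Ptger4+/+ cells).

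**Figure D5:**
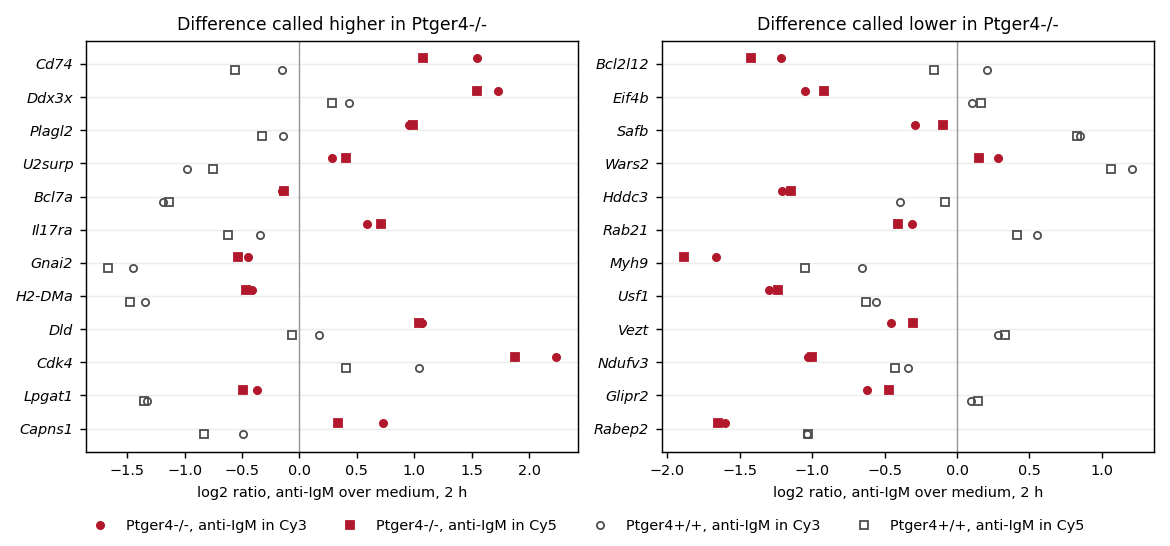
Log2 ratio of anti-IgM over medium on each array for the 24 genes with the widest gap between the genotypes among called differences. Filled red symbols are Ptger4-/- and open grey symbols Ptger4+/+ arrays, circles with anti-IgM in Cy3 and squares with it in Cy5; for Cd74 the Ptger4-/- arrays stand at 1.54 and 1.08 and the Ptger4+/+ arrays at -0.15 and -0.56.

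Of these 24 genes, 12 kept the called difference when any of the 4 arrays at 2 h was left out. They were Cd74, Cdk4, Ddx3x, U2surp, Plagl2, Capns1, Gnai2, Bcl7a, Myh9, Safb, Eif4b and Bcl2l12. Without the dye term 6 of the 24 stayed called, namely Ddx3x, Plagl2, Bcl7a, Gnai2, Bcl2l12 and Eif4b, and against a minimum fold of 1.5 Cd74 alone did. Of the class II list, Cd74, H2-Aa and H2-DMa had a called difference, and for H2-Aa the values were 1.05 and 0.78 against 0.27 and -0.05 in Ptger4+/+ cells. In the homing list 4 of 34 genes had a called difference, Ccr6, Ccr7, Cxcr4 and Cd24a, each higher in Ptger4-/- cells, against 1.13% of all features called higher and 0.608% called lower. Cxcr4 had 0.74 and 0.46 in Ptger4-/- against -0.04 and -0.44 in Ptger4+/+ cells, and Ccr7 had 0.57 and 0.45 against 0.11 and -0.16. For the proteasome the list median was 0.41 in Ptger4-/- and 0.19 in Ptger4+/+ cells, with 23 and 15 rises, and the difference was called for 1 gene, Psma6. The nucleolar list had medians of 1.02 and 0.81, with 54 rises in Ptger4-/- and 51 in Ptger4+/+ cells, and 3 called differences. Those were Nop56, Nop58 and Brix1.

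Features called in both genotypes with opposite signs numbered 40, and for 38 of them the difference was called. Those with a symbol were ranked by the smaller of the 2 genotypes' mean sizes. The first 5 were Capns1, Il17ra and Rab21, given above, and Serp1 and Btbd9. Serp1, which stabilises membrane proteins in the endoplasmic reticulum under stress, had 0.57 and 0.46 in Ptger4-/- cells and -0.20 and -0.56 in Ptger4+/+ cells. Btbd9 had 0.45 and 0.34 in Ptger4-/- cells and -0.29 and -0.58 in Ptger4+/+ cells. All of these are modest ratios on either side of 0.

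Members of the signalling and growth lists also had called differences between the Ptger4-/- and Ptger4+/+ responses, in which cell preparation and genotype cannot be told apart. Nfkb1 had 2.27 and 1.98 in Ptger4-/- cells against 1.35 on both arrays of Ptger4+/+ cells, a difference of 0.78 ± 0.12 (SE, n = 2 arrays each, limma adjusted p = 0.0326). The immediate-early gene Nr4a1 went the other way, with 1.95 and 1.66 in Ptger4-/- cells against 2.46 and 2.38 in Ptger4+/+ cells (difference -0.62 ± 0.10, limma adjusted p = 0.041). Both genes rose in both genotypes without overlap between them. Eif3b had 1.77 and 1.56 in Ptger4-/- cells against 0.97 and 0.52 in Ptger4+/+ cells, Psma6 had 1.45 and 1.28 against 0.64 and 0.35, and the ATP synthase gene Atp5pb had 1.28 and 1.01 against 0.20 and -0.17. Rpl5, a ribosomal protein gene, had 0.96 and 0.67 in Ptger4-/- cells against 0.01 and -0.44 in Ptger4+/+ cells. In these 4 genes the lower Ptger4-/- array exceeded the higher Ptger4+/+ array. None of Nfkb1, Nr4a1, Eif3b, Psma6, Atp5pb, Rpl5, H2-Aa, Cxcr4, Ccr7, Il17ra, Rab21, Serp1 and Btbd9 is among the 12 genes whose difference stayed called with each array at 2 h left out.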

How the data were processed

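RNA was T7-amplified, labelled with Cy3 and Cy5 and hybridised in dye-swap pairs to mouse oligonucleotide arrays, per the labels' protocols. The authors deposited 1 log ratio per probe and array, read here as log2 of Cy5 over Cy3. The lowest value, -9.03, lies beyond the 4.82 that 16-bit scanner values allow on a log10 scale, and natural logs are not excluded by that limit. Image analysis and normalization are not given in the sources used here. No intensities were used, so no filter on dim probes, saturation check or depth is possible, and the number of arrays limits the precision.

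Ratios were turned to anti-IgM over medium. Of 25344 probes, 21111 had 1 symbol in the platform annotation, of which 3974 symbols were updated through RefSeq and 68 kept as given. Probes of a gene were averaged, giving 22533 features. Limma 3.58.1 in R 4.3.3 was fitted to all 10 arrays with 5 group coefficients and a dye term, leaving 4 residual degrees of freedom. Adjusted p-values are Benjamini-Hochberg over 22533 features for each of 2 contrasts, the Ptger4-/- response and its difference from the Ptger4+/+ response. The Ptger4+/+ response was fitted and adjusted in the same way, and its calls are used as reference. The fit was tested on simulated data.

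Genes named are the 25 largest rises and falls by the smaller array value, the 12 called differences in each direction with the widest gap between genotypes, the 5 largest with opposite signs, up to 4 called members per direction of each list, and Ptger4. Members and lists were chosen with earlier results of these data known. Alternatives were no dye term, centred or scaled arrays, single probes, the 4 arrays at 2 h alone, a robust prior, a minimum fold of 1.5, an adjusted p under 0.01, and leaving out each array. The result of 1 list is not reported here.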

Additional observations from a re-analysis of the deposited data

Results flagged for a closer look

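The differences between the 2 h responses of Ptger4-/- and Ptger4+/+ cells that limma called, among all genes named above by rule, are given here as Ptger4-/- minus Ptger4+/+ on the log2 scale. Each is a test of the difference itself. The larger positive ones were 1.66 for Cd74, 1.33 for Cdk4, 1.28 for Ddx3x, 1.21 for U2surp, 1.20 for Plagl2, 1.20 for Capns1, 1.14 for Il17ra, 1.07 for Gnai2, 1.02 for Bcl7a, 1.00 for Dld, 0.97 for H2-DMa and 0.91 for Lpgat1. The larger negative ones were -1.34 for Bcl2l12, -1.12 for Eif4b, -1.03 for Safb, -0.94 for Hddc3, -0.92 for Wars2, -0.92 for Myh9, -0.85 for Rab21, -0.69 for Vezt, -0.67 for Usf1, -0.67 for Glipr2, -0.63 for Ndufv3 and -0.59 for Rabep2. Btbd9 and Serp1, with opposite signs in the genotypes, differed by 0.83 and 0.90.

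Among the largest falls, Il10ra (-0.65), Sipa1 (-0.55), Sash3 (-0.40) and Il16 (-0.37) fell further in Ptger4-/- cells. Signalling and transcription factor genes with a higher ratio in Ptger4-/- cells were Nfkb1 (0.78), Rasa2 (0.74), Zc3h12a (0.60), Klf6 (0.41) and Sesn1 (0.40), and those with a lower one were Irf2 (-0.56) and Jund (-0.48). Of genes for migration and antigen presentation, Cxcr4 differed by 0.84, H2-Aa by 0.80 and Pdia3 by 0.58. Genes of protein synthesis and turnover were Rpl5 (1.03), Eif3b (0.92), Psma6 (0.88), Rps3 (0.67), Cct7 (0.57) and Tars (0.55). The metabolic genes Atp5pb (1.13) and Ldha (0.45) and the lysosomal protease gene Ctsd (0.48) were higher, while Atp5c1 (-0.45) and the death gene Bak1 (-0.50) were lower in Ptger4-/- cells. Named outside that rule, the response differed by -0.62 for Nr4a1, 0.53 for Ccr7, 0.75 for Ccr6, 0.59 for Cd24a, 0.76 for Nop58, 0.72 for Nop56 and 0.72 for Brix1. Of the marker lists of other cell types, Cd2 from the T cell list differed by 0.85 and the globin gene Hba-a1 by -0.57. No other gene of the T cell list had a called difference. The part of these 2 genes in the other differences was not tested. Cell preparation and genotype cannot be told apart in these values, since each genotype rests on 1 dye-swap pair.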

How the results depend on the processing

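The number of features called in Ptger4-/- cells, 5259, ranged from 3543 to 5343 when any array was left out and was 3665 without the dye term, 3894 at an adjusted p under 0.01, and between 5201 and 5872 with centred or scaled arrays, single probes, a robust prior or the 4 arrays at 2 h alone. Against a minimum fold of 1.5 it was 994. The 391 called differences between the genotypes were less stable. They numbered 7 without the dye term, 10 at an adjusted p under 0.01, 1 against a minimum fold of 1.5, and 31 to 435 when 1 array was left out, with 91 and 63 without Ptger4-/- array 1 and array 2, and 252 and 48 without Ptger4+/+ array 1 and array 2. The lowest count, 31, came when 1 array of the Ptger4-/- pair at 24 h was omitted, which is in neither response and enters through the spread, and 63 were called when 1 array that compares the genotypes at 24 h was omitted. The other settings gave 373 to 489. Of the named Ptger4-/- ratios, 22 and 21 lost their call without Ptger4-/- array 1 and array 2, 15 without the dye term and 120 against the minimum fold, and of the 24 named differences 18 lost it without the dye term. No named gene or named difference changed sign under any setting. The cause of these changes was not tested. Array number and dye orientation coincide in both pairs at 2 h, so for these the dye term is also the replicate block. In the Ptger4+/+ pair with PGE2 at 24 h the order was reversed, so this does not hold for the whole fit.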
